A study of Mus musculus with 4 samples.

Results

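Lymphocyte markers were rare transcripts in these hearts, and their summed level was lowest in the heart of sedentary mice with cancer. The members are 9 genes of the 23282 genes listed, taken by symbol: the T cell genes Cd3d, Cd3e, Cd3g, Cd28 and Cd8a, the B cell genes Ms4a1, Cd79a and Cd79b, and Nkg7 of natural killer (NK) and cytotoxic cells. The rule uses gene symbols only. The 5 T cell members together had 53 reads in the normal control heart E(-)T(-), 33 in the normal exercise heart E(+)T(-), 25 in the cancer control heart E(-)T(+) and 62 in the cancer exercise heart E(+)T(+), an order kept below for values given as a series of 4. The 3 B cell members together had 16, 15, 4 and 9 reads in the same order. Most of the T cell reads in every library came from Cd3d and Cd28.

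The study asked how high-intensity aerobic exercise changes gene expression in healthy and in cancer-bearing mice. There were 4 groups of 10 male CDF1 mice each, a hybrid of the BALB/c and DBA/2 strains. The groups were mice without exercise or tumor (normal control), with exercise only (normal exercise), with tumor only (cancer control) and with both (cancer exercise). The labels give postnatal day 28, which is not the age at collection. According to the paper, the mice were of about that age at purchase, and hearts were taken later, at the end of the experiment. T(+) mice received CT26 murine colorectal carcinoma cells through the tail vein, and E(+) mice ran on a motorized treadmill. Each group has 1 heart library. The gastrocnemius muscle of the same study came from a representative mouse of each group, and whether that holds for the heart too is not given in the sources used here. No genotype other than the strain is named, so all groups share the same background.

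T cells recognize antigen through a receptor whose signal is carried into the cell by the CD3 chains, B cells do so through membrane immunoglobulin with the CD79 chains, and NK cells kill without such a receptor. In a healthy heart, lymphocytes are a small minority beside cardiomyocytes, fibroblasts, endothelial cells and resident macrophages. Leukocytes of the blood within the vessels and of the fat and lymph nodes around the heart can enter a heart sample too.

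QuantSeq libraries hold reads from transcript 3' ends only. Transcript length therefore does not enter, and levels of different genes can be set side by side. The deposited log2 values could be turned back into whole reads, of which the 4 libraries held 6595435 to 11546008 reads. The globin share was 37.3% in the cancer exercise library and 7.86 to 8.76% in the others. It sums 10 globin rows, some of which had nearly the same reads as another row. Whether reads were counted in more than 1 row was not tested, and such reads would raise both this share and the library total. The tissue label fits its markers: 12 of 12 cardiomyocyte genes were read, with 475278 to 615841 reads per library in sum. Without replicates there is no test of a condition and no p-value. The 95% intervals given here come from the Clopper-Pearson method, applied to the reads of both libraries at their effective sizes. They cover counting error only, PCR copies are not independent molecules, and the intervals are not adjusted for their number. In bulk tissue, fewer cells of a type and less RNA per cell cannot be told apart.

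Depth limited every member. Of the 36 values, 30 rested on 10 or fewer reads, 12 on 3 or fewer and 3 on 0. The mean over the 4 libraries ran from 2.69 normalized reads for Cd79a to 18.7 for Cd28, which put Cd79a at percentile 16.9 and Cd28 at percentile 34.0 of the genes with reads. All 9 members reached 4 normalized reads in at least 1 library, 5 had a mean of at least 4, and 1, Cd28, a mean of at least 16.

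**Figure D1:**
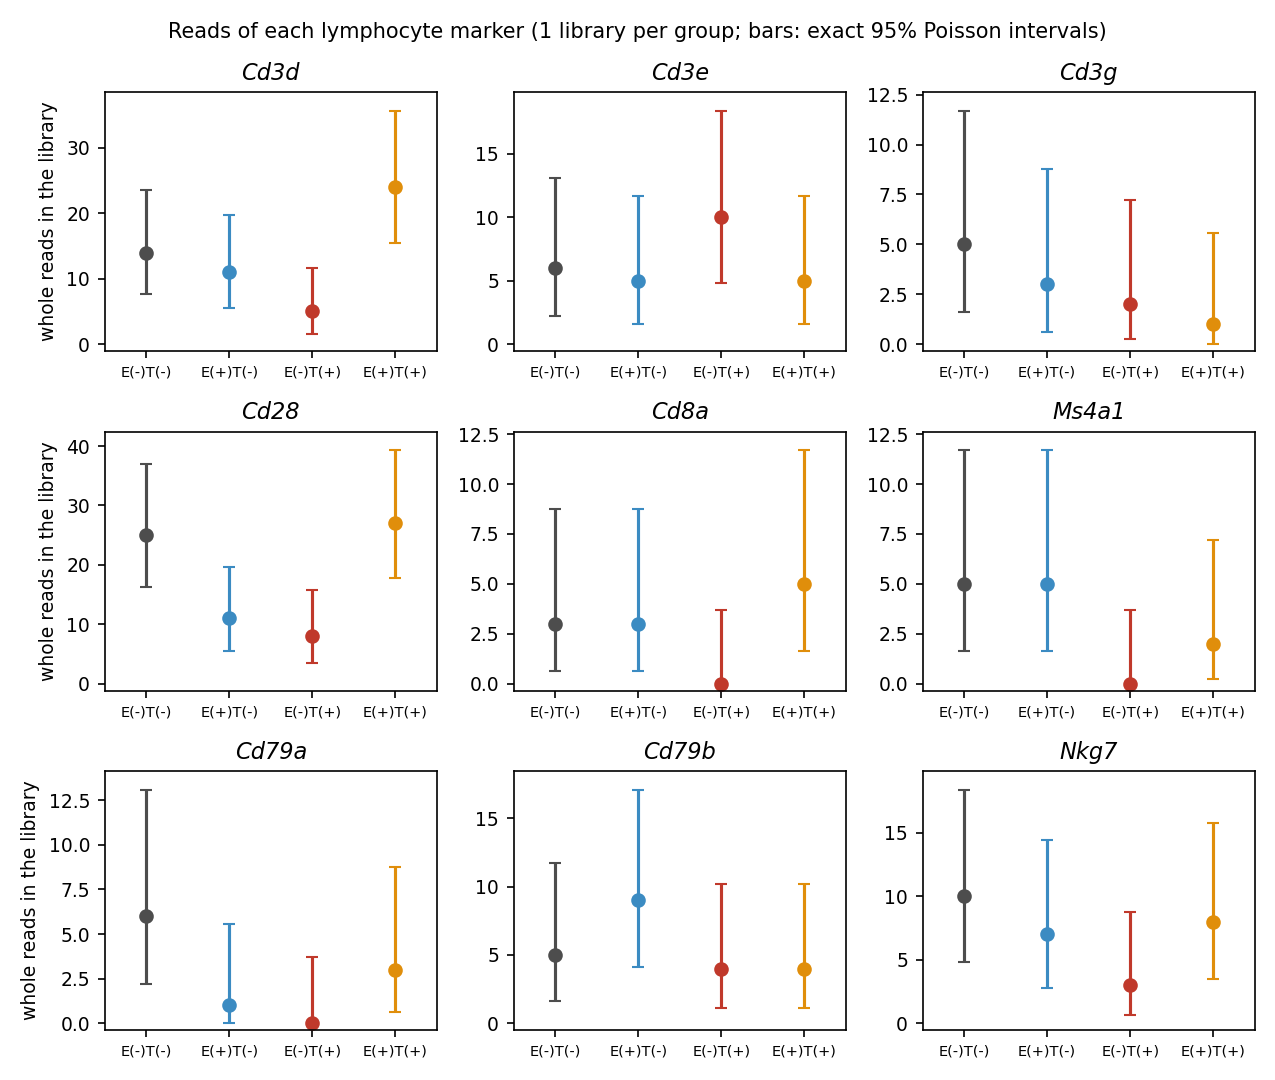
Whole reads of each of the 9 members (vertical axis, a scale of its own in each panel) in the 4 heart libraries (horizontal axis), not scaled to library size, with exact 95% Poisson intervals as bars. Cd3d and Cd28 reach 24 and 27 reads in E(+)T(+), whereas Cd8a, Ms4a1 and Cd79a stand at 0 in E(-)T(+).

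Cd3d, Cd3e and Cd3g encode the delta, epsilon and gamma chains of CD3, which every mature alpha-beta T cell needs for a receptor at its surface. Cd3d had 14, 11, 5 and 24 reads, or deposited log2 values of 4.09, 3.44, 2.39 and 4.76. Cd3e had 6, 5, 10 and 5 reads, with log2 values of 2.98, 2.45, 3.31 and 2.70. Cd3g had 5, 3, 2 and 1 reads, with log2 values of 2.72, 1.89, 1.44 and 1.10. The chains of the same complex thus had different orders of libraries: Cd3d was lowest in E(-)T(+), where Cd3e was highest, and Cd3g was lowest in E(+)T(+), where Cd3d was highest. The Poisson intervals of Cd3e and of Cd3g overlapped among all 4 libraries, so no order can be read for them at this depth. Cd3e overlaps the antisense gene Gm48719 and the gene model Gm48720 on its own strand, so its reads are uncertain. Reads of the former could be separated from its own only if the counting used strand, which is not given in the sources used here, and those of the latter not even then.

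The CD3 genes lie in 1 cluster at chr9:44969572-45009627 (GRCm38, the build mm10 of the labels). Cd3g at chr9:44969572-44980431 on the minus strand and Cd3d at chr9:44981786-44987339 on the plus strand point away from each other, with 1355 bp between their starts, and Cd3e lies at chr9:44998740-45009627 on the minus strand. Their promoter windows are shown as a description of this locus. Whether they bear on the reads was not tested, and no order of libraries can be read for Cd3e and Cd3g. Each holds 250 bases before and 50 bases after the RefSeq start (GRCm38.p6), printed 5' to 3' on the gene's strand, at chr9:44981536-44981835 for Cd3d, chr9:44980382-44980681 for Cd3g and chr9:45009562-45009861 for Cd3e. Capitals mark AGGAA, the core bound by ETS factors with 1 more base, on either strand (TTCCT on the printed one).
Cd3d: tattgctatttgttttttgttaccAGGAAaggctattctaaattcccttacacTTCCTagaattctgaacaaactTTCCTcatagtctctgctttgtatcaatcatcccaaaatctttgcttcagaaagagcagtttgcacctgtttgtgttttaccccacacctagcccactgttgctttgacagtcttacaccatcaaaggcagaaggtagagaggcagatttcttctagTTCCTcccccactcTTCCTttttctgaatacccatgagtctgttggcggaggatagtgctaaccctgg
Cd3g: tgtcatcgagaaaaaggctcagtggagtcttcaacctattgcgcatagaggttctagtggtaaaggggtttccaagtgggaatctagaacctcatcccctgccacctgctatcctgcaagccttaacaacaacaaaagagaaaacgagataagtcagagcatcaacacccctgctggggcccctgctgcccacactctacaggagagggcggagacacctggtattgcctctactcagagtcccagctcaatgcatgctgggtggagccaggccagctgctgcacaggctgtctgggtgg
Cd3e: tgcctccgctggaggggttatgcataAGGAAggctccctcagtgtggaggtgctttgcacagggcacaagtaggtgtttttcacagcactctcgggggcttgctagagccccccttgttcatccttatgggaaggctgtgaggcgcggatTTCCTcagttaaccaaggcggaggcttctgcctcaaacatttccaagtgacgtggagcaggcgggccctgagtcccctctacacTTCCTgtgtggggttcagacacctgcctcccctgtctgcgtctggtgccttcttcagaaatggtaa
AGGAA occurred 5 times in the window of Cd3d, 3 times in that of Cd3e and 0 times in that of Cd3g, and 66.7% of 32851 promoters of this length hold it. CANNTG, the E-box, which cannot overlap AGGAA, occurred once in Cd3d, 2 times in Cd3e and 4 times in Cd3g, and 72.3% of promoters hold it. These matches are a description of the letters and not binding sites. Promoters of 6 of the 9 members were in the table used, and the others, Cd28, Ms4a1 and Cd79b, are named only. Cd79a is the B cell member among the 6. The octamer ATGCAAAT, known from immunoglobulin promoters, was in 0 of the 6 windows on either strand, and 1.74% of promoters hold it.

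Cd28 at chr1:60716800-60773359 encodes the costimulatory receptor that T cells need beside the antigen receptor. It had 25, 11, 8 and 27 reads, with log2 values of 4.88, 3.44, 2.98 and 4.93. The normal control and cancer exercise libraries were high and close to each other, and the other two were low. Cd8a at chr6:71373427-71379173, the alpha chain of the CD8 coreceptor of cytotoxic T cells, had 3, 3, 0 and 5 reads, and its log2 values were 2.14, 1.89, 0.00 and 2.67. The 0 reads in E(-)T(+) have an exact 95% upper limit of 3.69 reads. Where a fold against a 0 is given, the 0 is counted as 3 reads, so that fold is not a 95% limit.

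The B cell members had few reads too. Their means were 3.10 normalized reads for Ms4a1, 2.69 for Cd79a and 5.45 for Cd79b, against 2.88 for Cd8a and 2.79 for Cd3g. Ms4a1 at chr19:11249675-11266241, which encodes CD20, had 5, 5, 0 and 2 reads, and is uncertain in the same way, since it overlaps the antisense gene 4930526L06Rik. Cd79a at chr7:24897381-24902197, the alpha chain of the B cell receptor signaling pair, had 6, 1, 0 and 3 reads. Cd79b at chr11:106311341-106314762, the beta chain, had 5, 9, 4 and 4 reads. The CD79 chains act as a pair, and their highest library was E(-)T(-) for Cd79a and E(+)T(-) for Cd79b. For each chain the Poisson intervals overlapped among all 4 libraries, so its highest library cannot be read at this depth. Nkg7 at chr7:43437073-43438249, a granule membrane protein of NK cells and cytotoxic T cells, had 10, 7, 3 and 8 reads, with log2 values of 3.62, 2.87, 1.82 and 3.28.

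On the normalized scale, 7 of the 9 members had their lowest value in E(-)T(+): Cd3d, Cd28, Cd8a, Ms4a1, Cd79a, Cd79b, which was lowest in E(+)T(+) when scaled to the library total, and Nkg7. The exceptions were Cd3e, lowest in E(+)T(-) but under the total in E(+)T(+), and Cd3g, lowest in E(+)T(+). The highest value was in the normal control for Cd3g, Ms4a1, Cd79a and Nkg7, in the cancer exercise library for Cd3d, Cd28 and Cd8a, in normal exercise for Cd79b and in the cancer control for Cd3e. Scaled to the library total, Cd3d, Cd28 and Cd8a were highest in the normal control too, at 2.12, 3.79 and 0.455 RPM (reads relative to the library total) against 2.08, 2.34 and 0.433 in the cancer exercise library.

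A member was called higher or lower in a comparison when the deposited values differed at least 2-fold and at least 1 of the 2 libraries had 4 normalized reads. The study filtered on the same fold and count without saying in how many libraries, or on which scale, the count was required. In both exercise comparisons the paper reports fewer altered heart genes than the rule used here called, so its filter let fewer genes pass. With 4 normalized reads in both libraries, or 16 in at least 1, Cd28 was still called in all 4 comparisons and Cd3d in all but exercise without tumor, and no other member was. Since 1 was added to the normalized read counts before the log2, a change of a gene with few reads comes out too small in these folds. The 4 comparisons share libraries, so they are not independent of each other.

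Tumor without exercise, E(-)T(+) vs. E(-)T(-), gave the most calls. Of the 8 members past the count minimum, 6 were lower (Cd3d, Cd3g, Cd28, Ms4a1, Cd79a and Nkg7) and 0 higher, while 13.1% of 14311 genes were lower and 14.6% higher. Among genes whose mean lay in the range of the members, 24.5% were lower and 29.7% higher, so calls were more frequent at this depth. The median log2 change of the 9 members was -1.80, or -1.28 with a 0 counted as 3 reads, against -0.02 over all genes whose mean was at least 4. Cd28 was lower by a log2 difference of -1.90, with an interval of the read ratio from -3.38 to -0.83, and Cd3d by -1.70, from -3.69 to -0.31. Nkg7 was lower by -1.80, with an interval from -4.61 to -0.16. With the 0 reads of E(-)T(+) counted as 3, Ms4a1 was 2.17-fold lower and Cd79a 2.60-fold lower. The log2 intervals reached up to -0.25 for Ms4a1 and -0.61 for Cd79a. For these 5 members the interval excluded no change, and 11.0% of all genes tested were lower and 11.7% higher with such an interval (15.9% and 19.8% in the range of the members). Cd3g was called at -1.28, but its interval from -5.09 to 0.91 included no change. Cd3e did not pass the call, with a difference of 0.33, nor did Cd79b, with -0.59, and Cd8a had too few reads to be called. In sum, the T cell members were lower by a log2 read ratio of -1.46 (interval -2.21 to -0.75) and the B cell members by -2.38 (-4.42 to -0.75). Without Cd28 the T cell value was -1.10 (-2.06 to -0.18). The CD3 members alone gave -0.93, and their interval from -1.92 to 0.01 included no change. Without Cd79a the B cell value was -1.70, and its interval from -3.83 to 0.09 included no change.

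Exercise under tumor load, E(+)T(+) vs. E(-)T(+), gave higher values of the T cell members Cd3d, Cd28 and Cd8a and lower ones of Cd3e and Cd3g. Of 6 members past the count minimum, 4 were higher (Cd3d, Cd28, Cd8a and Nkg7) and 0 lower, against 9.39% of 14357 genes higher and 10.0% lower, or 21.5% and 24.8% among genes in the range of the members. Cd3d was higher by 2.37, with an interval of the read ratio from 1.15 to 4.32, and Cd28 by 1.95, from 0.89 to 3.41. Cd8a, with 5 reads against 0, was 2.07-fold higher with the 0 counted as 3 reads, and its log2 interval started at 0.18. The interval excluded no change for these 3 members, and 6.94% of all genes tested were higher and 7.22% lower with such an interval (12.8% and 15.3% in the range of the members). Nkg7 was called at 1.46, but its interval from -0.33 to 4.27 included no change. Cd3e differed by -0.61 and Cd79b by 0.28, neither past the call. The other members, Cd3g, Ms4a1 and Cd79a, had 3 reads or fewer in both libraries. The T cell sum was higher by 1.62 (0.93 to 2.35), and by 1.35 (0.48 to 2.28) without Cd28. Its rise came mostly from Cd3d and Cd28, with 24 and 27 reads against 5 and 8. Of the other T cell members, Cd3e had 5 reads against 10, Cd3g 1 against 2 and Cd8a 5 against 0. The B cell sum, 9 reads against 4, differed by 1.48 with an interval from -0.36 to 3.63, so a change was not detectable at this depth. With the high globin share of E(+)T(+), the scaling bears on this comparison: scaled to the library total, the median of all genes moved to -0.59, the higher share of all calls went from 48.4% to 12.9%, and Cd3d and Cd28 were still called higher, Cd8a and Nkg7 were not, Cd3e was called lower, and the small difference of Cd79b changed sign to -0.21.

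Exercise in tumor-free mice, E(+)T(-) vs. E(-)T(-), gave few calls. Of 8 members past the count minimum, 2 were lower (Cd28 and Cd79a) and 0 higher, where 6.40% of 13930 genes were lower and 5.88% higher, and 22.3% and 18.4% of genes in the range of the members. Cd28 was lower by -1.44, with an interval from -2.70 to -0.45. It was the only one of the 8 whose interval excluded no change, and 3.88% of all genes tested were lower and 3.61% higher with such an interval (11.4% and 8.84% in the range of the members). Cd79a, with 1 read against 6, was lower by -2.05, with an interval of the read ratio from -8.45 to 0.12. Another 6 members had a lower value in E(+)T(-) without passing the call or, for Cd8a, the count minimum, and Cd79b had a higher one. The T cell sum was lower by -1.03 (-1.70 to -0.37), which rested on Cd28: without it the value was -0.69 and the interval from -1.56 to 0.17 included no change. The B cell sum differed by -0.43 (-1.55 to 0.68).

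Tumor in exercised mice, E(+)T(+) vs. E(+)T(-), is implied by the design. Of 7 members past the count minimum, 2 were higher (Cd3d and Cd28) and 0 lower, while 12.0% of 14282 genes were higher and 11.1% lower, and 28.5% and 22.3% of genes in the range of the members. Cd3d was higher by 1.31 (interval 0.31 to 2.58) and Cd28 by 1.49 (0.51 to 2.73), and 9.44% of all genes tested were higher and 8.80% lower with such an interval, or 19.5% and 13.3% in the range of the members. This result depends on the scaling: scaled to the library total, neither was called, Ms4a1 and Cd79b were called lower, Cd3e and Nkg7 changed sign from 0.25 to -0.36 and from 0.41 to -0.22, and the median of all genes stood at -0.73. The T cell sum was 1.18 higher (0.55 to 1.84) as normalized by the authors and 0.46 higher (-0.17 to 1.12) per library total. The B cell sum differed by -0.46 (-1.84 to 0.82).

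**Figure D2:**
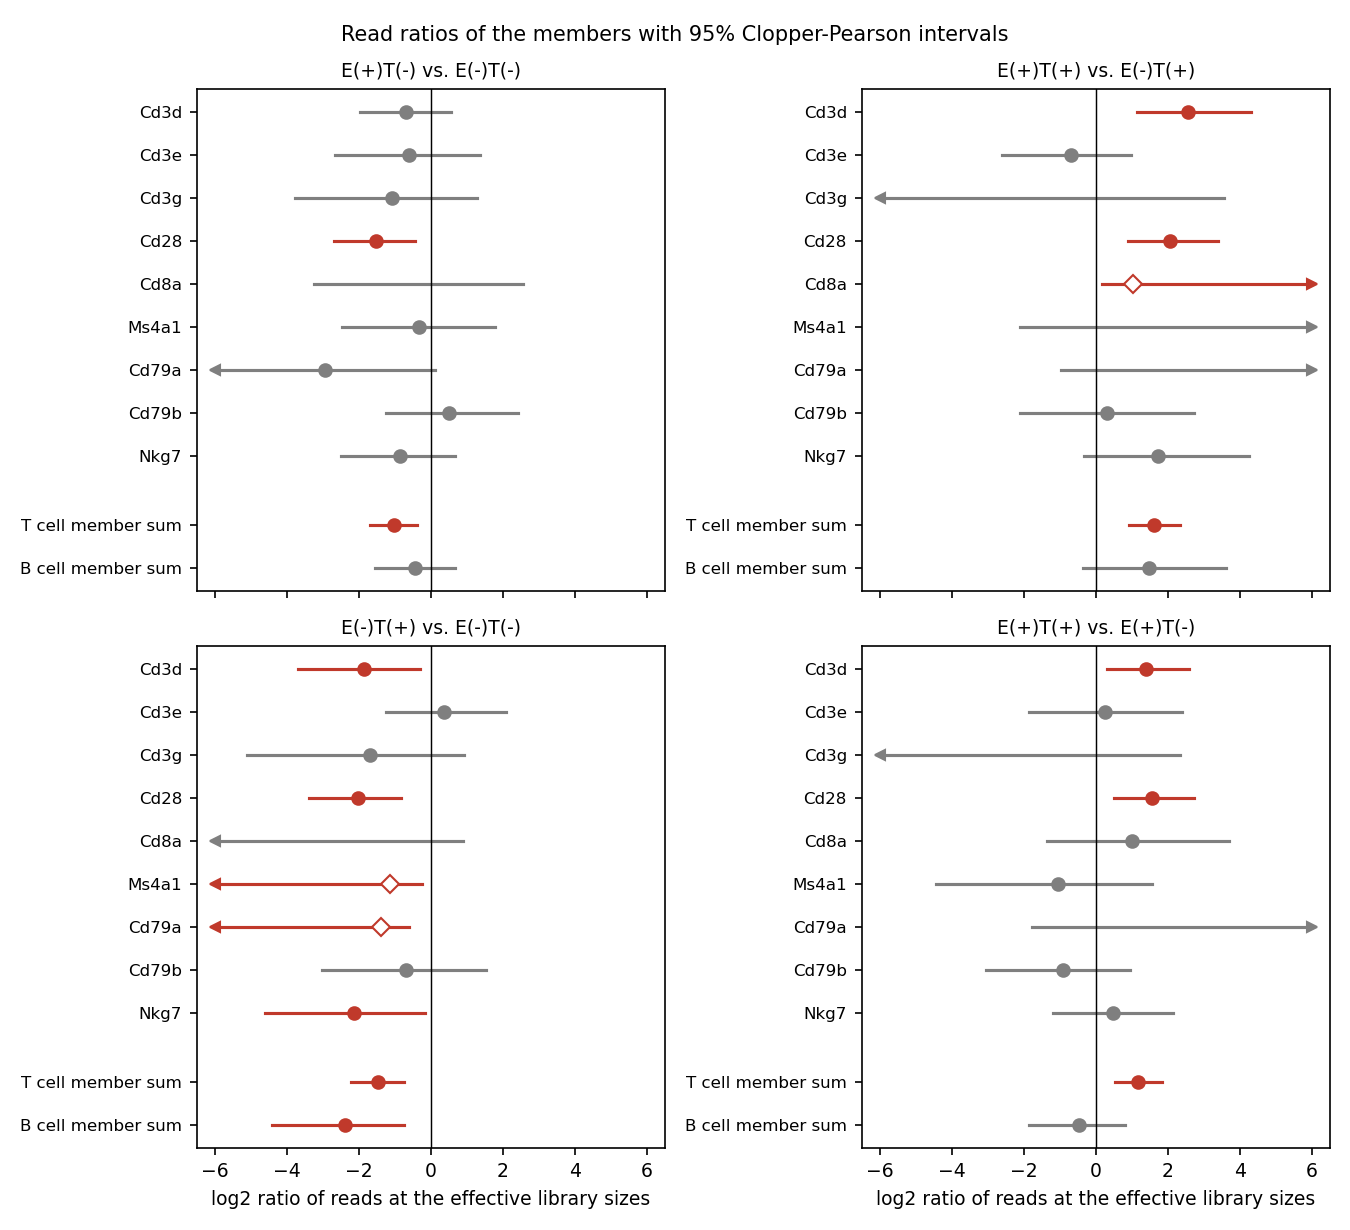
Log2 ratio of reads at the effective library sizes (horizontal axis) for each member and for the T and B cell sums, with 95% Clopper-Pearson intervals as lines, in the 4 comparisons. Red intervals exclude no change, and arrows run beyond the axis. Open diamonds are ratios computed against 3 reads where a library had 0, and are not limits of the interval. No point is drawn where both libraries had 3 reads or fewer. In E(-)T(+) vs. E(-)T(-), 5 member intervals lie below 0, and in E(+)T(+) vs. E(-)T(+), 3 lie above 0. Scaled to the library total, E(+)T(+) values are lower, and in the last panel Cd3d and Cd28 are no longer called.

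The exercise changes with and without tumor differed by more than read sampling for Cd28, and for Cd3d at full depth only. The difference of the log2 read ratios, with tumor minus without, was 3.26 for Cd3d, with an exact conditional interval of 1.26 to 5.38, and 3.59 for Cd28, from 1.90 to 5.33. With reads subsampled at random to the smallest library, Cd3d stood at 2.05 and its interval from -0.32 to 4.57 included no difference, while Cd28 stood at 3.95 (1.80 to 6.28). Subsampling leaves fewer reads, so it widens the intervals and moves the values by the draw itself. For the T cell sum it was 2.65 (1.66 to 3.64), and without Cd28 it was 2.04 (0.78 to 3.32). For Cd79a, with 6, 1, 0 and 3 reads, only a lower limit of 0.43 exists, and it fell below no difference, to -0.14, per library total and to -0.61 after subsampling. The intervals of Cd3e, Cd3g, Cd8a, Ms4a1, Cd79b and Nkg7 and of the B cell sum included no difference, with -0.11 to 5.52 for Nkg7 and -0.30 to 4.33 for the B cell sum. These intervals compare 4 libraries and not 4 conditions.

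The member sums were also set against a gene that all leukocytes express. Ptprc, which encodes CD45 of all leukocytes, had 80, 72, 122 and 96 reads. Per 100 Ptprc reads, the T cell members had 66.2, 45.8, 20.5 and 64.6 reads and the B cell members 20.0, 20.8, 3.28 and 9.38. In RPM, reads scaled to the library total, the T cell members had 8.04, 3.89, 2.62 and 5.37 and the B cell members 2.43, 1.77, 0.420 and 0.779. On both scales the T and the B cell sum were lowest in E(-)T(+). Both scales divide the same member reads, so the Ptprc ratio is not separate evidence. Ptprc reads were highest in E(-)T(+), at 122, which lowers the ratio there. Neutrophil and macrophage genes also had more reads in E(-)T(+) than in E(-)T(-). The part of these cells in the Ptprc reads was not tested. The scales differ for E(+)T(+), which was close to E(-)T(-) per Ptprc read in T cell members and below it in RPM.

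**Figure D3:**
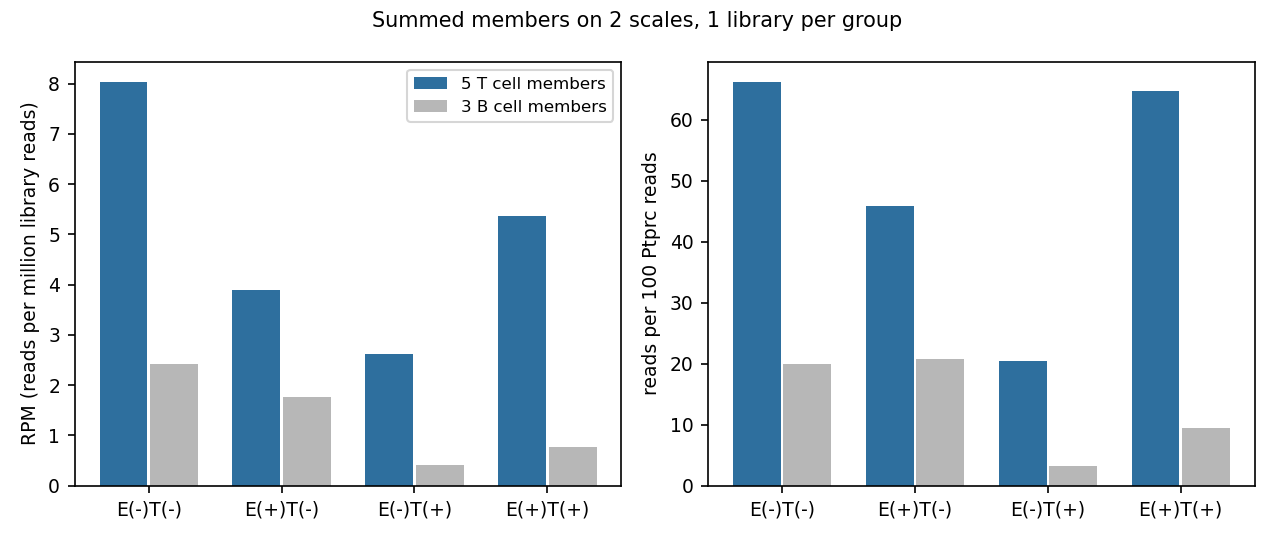
Summed reads of the 5 T cell members and of the 3 B cell members in the 4 libraries, in RPM (left) and per 100 Ptprc reads (right), 1 library per group and no error bars. E(-)T(+) is lowest for both sums on both scales, at 2.62 and 0.420 RPM.

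Other genes of the same cells gave a mixed picture. Of 32 other T cell genes, 28 were listed under these symbols, among them Foxp3 (47, 44, 43 and 48 reads) and Bcl11b (16, 28, 17 and 26). In E(+)T(+) vs. E(-)T(+), 11 of the 21 past the count minimum were called higher and 0 lower, where 9.39% of all genes, and 21.5% in the range of the members, were higher. The interval excluded no change for 5 of the 11, among them Lck, the kinase that phosphorylates CD3, with 16 reads against 5, and Ccr7, the lymph node homing receptor, with 10 against 0. The median log2 change over the 14 genes of this list whose mean was at least 4 was 0.82, and the summed reads were higher by 0.54 (0.31 to 0.77). Scaled to the library total, 4 of 17 were higher and 1 lower, and the median was 0.27. In E(-)T(+) vs. E(-)T(-), 7 of 19 were lower, 4 of them with an interval excluding no change, and 1 higher, against 13.1% of all genes lower (24.5% in the range of the members). The median of the 14 was -0.36 there and the sum was lower by -0.48 (-0.71 to -0.24). In E(+)T(-) vs. E(-)T(-), 6 of 17 were lower, 3 with such an interval, and 1 higher, with a median of -0.32. Of all genes 6.40% were lower there (22.3% in the range of the members), and 3.88% (11.4%) with such an interval. In E(+)T(+) vs. E(+)T(-), 11 of 21 were higher, 5 with such an interval, and 1 lower, with a median of 0.99, or 5 higher and 3 lower of 18 per library total with a median of 0.36. The share higher was 12.0% of all genes and 28.5% in the range of the members, or 9.44% and 19.5% with such an interval. Cd4, the coreceptor of helper T cells, had 5, 6, 10 and 7 reads and was not called in any of the 4 comparisons.

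Of 28 symbols sought for other B cell genes, 22 were listed. Cd72 led them with 210, 320, 364 and 290 reads, while the defining Pax5 had 0 in all 4 libraries. Jchain, of antibody-secreting cells, had 19, 1, 60 and 50 reads and so did not follow the members. Bank1, a B cell scaffold protein, had 19, 46, 2 and 4 reads, and Cd37 had 16, 12, 18 and 30. In E(-)T(+) vs. E(-)T(-), 6 of 13 were lower, 2 of them with an interval excluding no change, and 2 higher, against 13.1% of all genes lower and 24.5% in the range of the members. The median over the 11 genes of this list whose mean was at least 4 was -0.92, or -0.83 with a 0 counted as 3 reads, whereas the summed reads, led by Cd72, differed the other way by 0.18 (-0.03 to 0.38). In E(+)T(+) vs. E(-)T(+), 7 of 13 were higher, 2 with such an interval, and 1 lower, against 9.39% of all genes higher and 21.5% in the range of the members. The median of the 11 was 0.86 and the sum differed by 0.15 (-0.04 to 0.34), while per library total 1 of 9 was higher and 1 lower, with a median of 0.34. The counts were 2 higher and 2 lower of 14 for exercise without tumor, with a median of -0.16 but a sum higher by 0.22 (0.02 to 0.42), and 3 higher and 4 lower of 15 for tumor with exercise, with a median of 0.22 that turned to -0.36 per library total. Of all genes, 5.88% were higher and 6.40% lower in the former comparison, and 12.0% and 11.1% in the latter. In the range of the members these shares were 18.4% and 22.3%, and 28.5% and 22.3%.

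Of 22 other NK and cytotoxic genes, 18 had reads. Gzma, a granzyme, had 14, 7, 23 and 24 reads, Ccl5 14, 15, 14 and 17, Il2rb 10, 4, 3 and 8, and Xcl1 10, 3, 0 and 1. Il2rb, the interleukin 2 receptor beta chain, was thus lowest in E(-)T(+) like Nkg7, and Gzma was not. The list had 5 lower and 1 higher of 9 genes in E(+)T(-) vs. E(-)T(-), against 6.40% of all genes lower (22.3% in the range of the members), and the interval excluded no change for Xcl1 only. It had 6 lower and 0 higher of 8 in E(-)T(+) vs. E(-)T(-), against 13.1% lower (24.5%), and the interval excluded no change for Il2rb and Xcl1. There were 2 higher and 0 lower of 4 in E(+)T(+) vs. E(-)T(+), where no interval of a called gene excluded no change, and 2 higher and 1 lower of 5 in E(+)T(+) vs. E(+)T(-), where 1 did. The shares of all genes higher in these comparisons were 9.39% and 12.0% (21.5% and 28.5% in the range of the members). Per library total, the counts of E(+)T(+) vs. E(-)T(+) became 0 and 0 of 3, and those of E(+)T(+) vs. E(+)T(-) 1 higher and 2 lower of 5.

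Few of the shared signaling genes of antigen receptors were called. Of 27 listed, Fyn led with 390, 581, 296 and 241 reads. The 4 comparisons had 0 to 2 higher and 1 to 3 lower of 24 or 25 genes, with medians between -0.30 and -0.05, and per library total up to 11 were lower, in E(+)T(+) vs. E(+)T(-). As deposited, 5.88 to 14.6% of all genes were higher and 6.40 to 13.1% lower. Many of them, such as Fyn and Lyn, are expressed in other cells too. Of 8 thymocyte genes, Rag1, Rag2 and Dntt, which assemble receptor genes in immature lymphocytes, had 0 reads in all 4 libraries.

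Markers of other cells moved with these results, and their part in them was not tested. Of 8 adipocyte genes, 7 were lower in E(-)T(+) vs. E(-)T(-) and 7 in E(+)T(-) vs. E(-)T(-), 6 of 7 were higher in E(+)T(+) vs. E(-)T(+) and 4 of 7 in E(+)T(+) vs. E(+)T(-), and these counts were the same per library total. The shares of all genes, in the same order, were 13.1% and 6.40% lower and 9.39% and 12.0% higher. Adipoq, the adipokine of fat cells, had 317, 78, 76 and 356 reads and Plin1, which coats fat droplets, 52, 16, 0 and 76. Fabp4, also of endothelial cells, led the list with 14859 to 17512 reads. Lung epithelial genes had 551, 188, 656 and 1715 reads in sum, led by the club cell gene Scgb1a1 with 407, 108, 412 and 1123. The T cell sum, mostly reads of Cd3d and Cd28, and the adipocyte genes were therefore low in the same libraries, E(+)T(-) and E(-)T(+). The lung genes were not low in E(-)T(+).

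Myeloid genes moved otherwise. Neutrophil genes had 130, 114, 3783 and 5695 reads in sum and macrophage and monocyte genes 3937, 6589, 12584 and 6642. The pan-leukocyte genes, with 798, 1064, 1656 and 1288 reads, were higher by 0.68 in E(-)T(+) vs. E(-)T(-), while the T and B cell sums were lower there. Erythroid genes had 579169, 713938, 751367 and 4318838 reads, platelet genes 795, 1871, 3876 and 2375, dendritic cell genes 58, 101, 95 and 72, and cell cycle genes 151, 210, 758 and 1016.

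**Figure D4:**
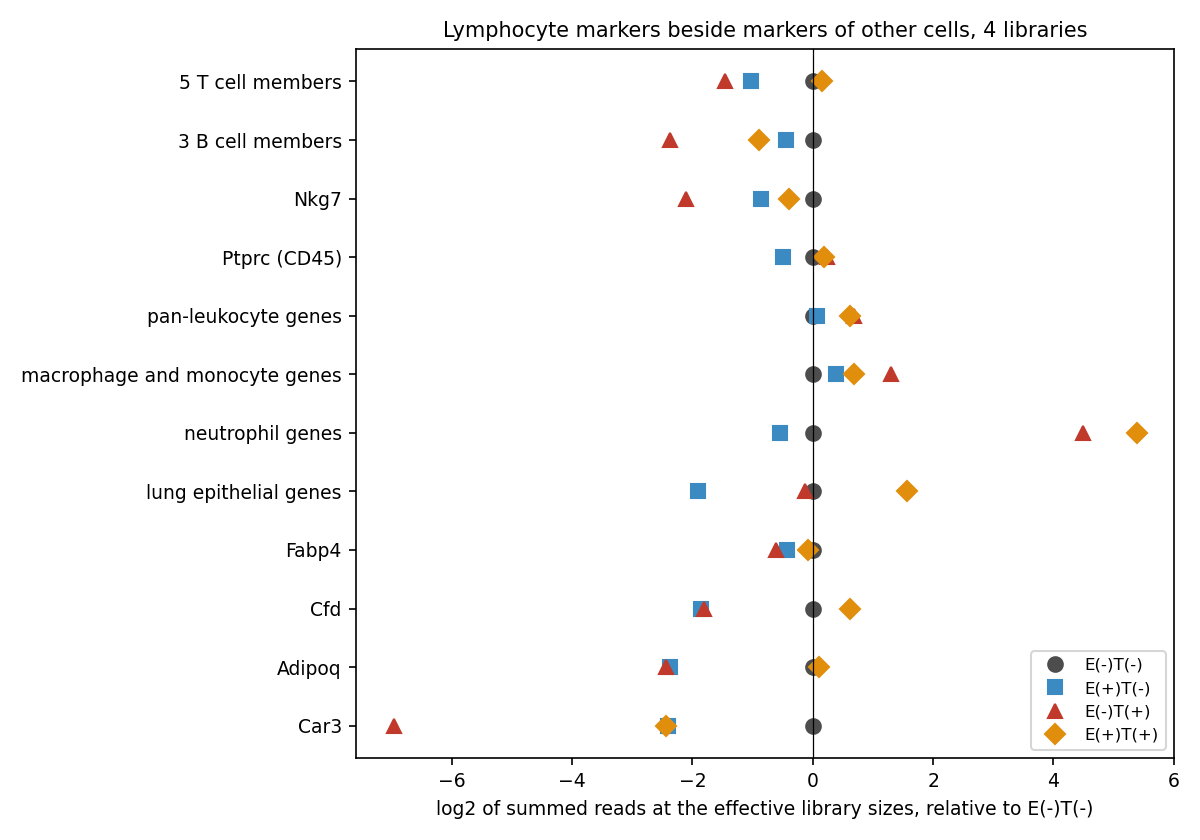
Log2 of reads at the effective library sizes, relative to E(-)T(-) (horizontal axis), for the member sums, Nkg7, Ptprc, 4 lists of other cells and the 4 most abundant adipocyte genes, 1 symbol per library and no error bars. The triangles of E(-)T(+) lie left of 0 for the T and B cell members, Nkg7, Cfd, Adipoq and Car3 and right of 0 for pan-leukocyte, macrophage and neutrophil genes. Scaled to the library total, all E(+)T(+) symbols would lie further left.

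Over the 11633 genes whose mean reached 16 normalized reads, those closest to the T cell sum in centred log2 values over the 4 libraries were Alms1, with a root mean square difference of 0.0472, Cxxc4 (0.0629), Tmem163 (0.105), Tg (0.110) and Gsto2 (0.144), and 23 genes lay within 0.25. For the B cell sum they were Dcaf4 (0.0365), Gtf2h3 (0.0456), Cryba4 (0.0689), Abca8b (0.0824) and Zscan20 (0.0916), with 121 genes within 0.25. With 4 points, many genes come close to any pattern. Adipoq was 0.585 from the T cell sum, at percentile 15.8 of these genes, but Plin1, the other adipocyte gene measured this way, was 1.91 from it, farther than Ptprc at 0.671 and Scgb1a1 at 0.992.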

How the data were processed

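Heart mRNA of 4 groups was analysed, 1 library per group. According to the paper, the authors aligned QuantSeq reads with Bowtie2 (build mm10 per the labels), counted them with Bedtools and normalized the counts with the quantile normalization of edgeR. The authors deposited, per gene and library, log2(normalized read count + 1). The design had assumed read counts, so the deposited log2 values were used as they stand, and whole reads were recovered from them by a fit of the 4 relative sizes and 1 dispersion (0.149). The fit gave the deposited values back to within 0.000510, and whole reads to within 0.1 for 100% of the 25460 values from 5 to 99 reads. On reads simulated for 16829 genes in E(+)T(+) vs. E(-)T(+), 98.3% were recovered exactly, 199 of 200 genes changed 4-fold were called, and so were 486 of 13950 unchanged genes. The simulated reads varied by counting error only, and the changed genes all had a mean of at least 16. Of the members only Cd28 reached that mean, so the share called does not hold for the others.

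The 9 members and all lists were chosen with earlier results of these data known. For a symbol with more than 1 value, as for 35 symbols, the value highest on average was taken. The rule for names took all 9 members, of each other list the 4 genes with the highest mean and, per comparison, the called gene with the largest change each way among genes whose mean reached 16, and the 5 genes most like each sum. Of the lists, the names that bear on the members are printed, and some genes that the rule names are not reported here. Pax5, Cd4, Lck, Ccr7, Rag1, Rag2 and Dntt were named after their values were seen. The lists were other T cell, other B cell, other NK and cytotoxic, antigen receptor signaling, thymocyte, pan-leukocyte, neutrophil, macrophage and monocyte, dendritic, erythroid, platelet, adipocyte, lung epithelial, cardiomyocyte and cell cycle genes. Immunoglobulin and T cell receptor constant genes were sought for the T and B cell lists but were not found under the symbols used, so they have no values here. Calls need a 2-fold change and 4 normalized reads in 1 library. Intervals are 95% Clopper-Pearson intervals, or exact conditional ones for differences of changes, and the floor for 0 reads is 3 reads. Alternatives covered the scaling, count minimum, pseudocount, depth and repeated symbols. Gene positions are from GENCODE (GRCm38) and promoters from RefSeq (GRCm38.p6). Tools were numpy 2.4.6, pandas 2.3.3, scipy 1.17.1 and, for figures, matplotlib 3.10.9 (Python 3.11.15).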

Additional observations from a re-analysis of the deposited data

Results flagged for a closer look

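The exercise change differed with and without tumor by more than read sampling for Cd28 and the T cell sum, and under some settings only for Cd3d and Cd79a. With tumor minus without, the log2 difference was 3.26 for Cd3d, 3.59 for Cd28 and 2.65 for the 5 T cell members in sum, and for Cd79a the lower limit of its interval was 0.43. The interval of Cd3d, from -0.32 to 4.57, included no difference after subsampling to the smallest library, and the limit of Cd79a was -0.14 per library total, -0.61 after subsampling and -0.03 per Ptprc read. Cd28 was lower with exercise in tumor-free mice and higher with exercise in cancer-bearing mice. With 1 library per group these values compare libraries, and no test of the conditions exists.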

How the results depend on the processing

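With a count minimum of 16, the members called were 1 (Cd28) for exercise without tumor, 2 for exercise with tumor and 2 for tumor without exercise, in place of 2, 4 and 6. With 4 normalized reads required in both libraries they were 1, 2 and 2 as well. These minimums leave fewer members to call. In E(+)T(+) vs. E(+)T(-), 1 member was called after subsampling to the smallest library, in place of 2, and the T cell sum was 0.46 scaled to the library total and 0.49 scaled to Ptprc reads, an alternative chosen after seeing the data, in place of 1.18. The globin share of E(+)T(+) moves with the first of these, and the cause was not tested. In that comparison the total gave 2 members lower and 0 higher. Of the 36 member changes, 4 lost and 4 gained the call under the total, 2 lost and 1 gained it after subsampling (Cd3d in that comparison went from 1.31 to 0.36) and 2 lost it with a pseudocount of 4. Nkg7 in E(+)T(+) vs. E(-)T(+) was no longer called at 0.91 under the total and 0.96 with that pseudocount. No called change turned its direction, whereas uncalled ones of Cd79b, Cd3e and Nkg7 did under the total. Chosen after seeing the data, the T cell sum per Ptprc read for exercise without tumor was -0.53 (-1.20 to 0.12), and without Cd28 it was -0.69. The B cell sum without Cd79a was -1.70 for tumor without exercise. Without Cd79b, the B cell sum was 1.05 higher for exercise with tumor with a 0 counted as 3 reads, and its interval started at 0.18. The higher share of all calls under the total moved from 52.7% to 42.1% in E(-)T(+) vs. E(-)T(-) and from 52.0% to 13.7% in E(+)T(+) vs. E(+)T(-), and without genes over 1% of a library to 43.5% and 41.3%. No paired analysis was possible because each group has 1 library, and for the same reason no library could be left out. At 0 to 27 reads per value, the smallest log2 difference of a single member whose interval excluded no change was 1.31.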
